A study of Mus musculus with 4 samples.

Results

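Glycolysis was followed through 10 of its genes, of 31053 genes in the files, in cells of inguinal subcutaneous white fat that were sorted by FACS for green fluorescence driven by the Chat locus (ChAT-eGFP+). The genes are Slc2a1, Hk2, Pfkp, Aldoa, Tpi1, Gapdh, Pgk1, Eno1, Pkm and Ldha. They were picked by name to cover most steps from glucose uptake to lactate. All mice were male ChATBAC-eGFP reporter mice that were moved to 30 °C at 5 weeks of age for 3 weeks. The 30 °C group then stayed at 30 °C for 4 h more, and the 4 °C group spent 4 h at 4 °C, after a stay at room temperature that only this group had. Each group has 2 libraries, and each library holds the stromal vascular cells of 4 pooled mice, so that p-values measure the spread between pools. The reporter is a transgene on a bacterial artificial chromosome, and the sort therefore kept cells in which this transgene was bright, whatever their type. Adipocytes were not part of the sorted fraction.

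Glycolysis splits glucose into pyruvate in the cytosol and yields ATP and NADH on the way. Glucose enters through transporters such as the one encoded by Slc2a1 (GLUT1) and is trapped by hexokinases, of which Hk2 is the inducible form in many activated cells. Pfkp encodes the platelet-type phosphofructokinase of the committed step, Aldoa an aldolase, and Tpi1 the triose phosphate isomerase. Gapdh, Pgk1, Eno1 and Pkm encode the enzymes of the lower, energy-yielding part, and Ldha encodes the lactate dehydrogenase subunit that favours the turnover of pyruvate to lactate. Lymphocytes that divide are known to raise glycolysis, while resting ones rely more on the oxidation of fuels in mitochondria, and hypoxia-inducible factor and MYC are known inducers of many of these genes.

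The start regions of 4 members that the results turn on are shown as an aid to reading them. Of the 6 types tested for cycling, Gapdh and Pgk1 were called higher in 6, Ldha was called higher in 5 and Aldoa lower in 4. Each region runs 5′ to 3′ from 250 bases before to 50 bases after a transcript start of RefSeq on GRCm38.p6. The first start listed is shown where a gene has several. Capitals mark ACGTG and GCGTG on either strand, the core letters of the element that hypoxia-inducible factor is known to bind.
Gapdh (chr6:125165724-125166023, minus strand): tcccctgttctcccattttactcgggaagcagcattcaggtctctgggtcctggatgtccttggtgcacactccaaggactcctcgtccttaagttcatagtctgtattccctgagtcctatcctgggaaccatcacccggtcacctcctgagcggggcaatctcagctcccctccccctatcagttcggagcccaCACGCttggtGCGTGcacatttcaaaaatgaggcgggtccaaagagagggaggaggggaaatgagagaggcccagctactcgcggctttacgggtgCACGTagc
Pgk1 (chrX:106186850-106187149, plus strand): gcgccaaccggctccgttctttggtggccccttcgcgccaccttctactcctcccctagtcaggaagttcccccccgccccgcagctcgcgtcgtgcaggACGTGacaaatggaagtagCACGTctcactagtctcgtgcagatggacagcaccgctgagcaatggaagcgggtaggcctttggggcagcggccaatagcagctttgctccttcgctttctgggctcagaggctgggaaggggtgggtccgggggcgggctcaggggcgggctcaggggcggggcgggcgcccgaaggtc
Ldha (chr7:46845554-46845853, plus strand): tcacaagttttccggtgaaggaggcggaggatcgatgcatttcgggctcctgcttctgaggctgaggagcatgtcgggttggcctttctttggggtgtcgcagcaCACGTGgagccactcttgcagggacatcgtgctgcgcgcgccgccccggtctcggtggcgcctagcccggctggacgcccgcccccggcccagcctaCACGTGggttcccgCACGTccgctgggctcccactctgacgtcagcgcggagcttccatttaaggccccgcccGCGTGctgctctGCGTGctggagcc
Aldoa (chr7:126800398-126800697, minus strand): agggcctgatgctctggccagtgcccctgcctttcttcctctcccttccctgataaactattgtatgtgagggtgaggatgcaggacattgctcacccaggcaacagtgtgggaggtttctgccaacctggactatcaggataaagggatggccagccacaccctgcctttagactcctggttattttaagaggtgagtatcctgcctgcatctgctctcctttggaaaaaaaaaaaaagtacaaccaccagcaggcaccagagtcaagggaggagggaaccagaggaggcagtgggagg
These letters occurred 3 times in the Gapdh window, 2 times in that of Pgk1 and 7 times in that of Ldha, counted on both strands, where 4 of the matches lay in 2 copies of the palindrome CACGTG. The Aldoa window shown held none, while its 2 other windows, which overlap, held 1 match each. Of all 16 windows of the 10 genes, some of which overlap, 13 held ACGTG or GCGTG, against 43.8% of the 32851 windows of the same length in the table, and those of Tpi1, of one Pkm start and of one Aldoa start held none. Windows without these letters were thus also found among members called higher with cycling, namely Tpi1 (5 of 6 types) and Pkm (6 of 6). The 4 windows shown are not a test of the letters against the direction of change. A match is only a match of letters, and nothing about binding was measured.

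From 26654 barcodes, 21253 cells passed the filters, and 17752 of them (83.5%) met the marker gate of 1 of 13 cell types. The largest were 6954 Ighd-positive B cells, 2884 Foxp3-positive T cells (regulatory T cells) and 2848 Foxp3-negative αβ T cells. Genes that the gates did not use were in place, with a Bcl6 UMI in 68.7% of germinal centre B cells, Ctla4 in 95.8% of Foxp3-positive T cells, Il7r in 99.2% of group 2 innate lymphoid cells (ILC2) and Pf4 in 90.7% of macrophages. Of the markers of other cells, S100a8 and S100a9 (neutrophils) stayed under 0.9% in every type and Plin1 (adipocytes) at or under 1.23%. Other markers were seen more often, with an Adipoq UMI (adipocytes) in 5.56% of Fscn1-positive dendritic cells and 1.96% of macrophages, a Ppbp UMI (platelets) in 4.17% of macrophages and an Hba-a1 UMI (red blood cells) in 4.64% of ILC2. Fabp4, a gene of adipocytes and endothelium, was seen in 85.1% of lymphatic endothelial cells, 49.8% of macrophages, 17.2% of stromal cells, 13.7% of dendritic cells and 2.60% to 6.09% of cells of the other types. The 4 libraries were alike in depth, with 76058112 to 84468931 UMIs in all and a median of 7520 to 8068 UMIs per kept cell. Between pairs of libraries 81 barcodes were shared. A cell was called cycling where it held at least 1 UMI of Top2a, the DNA topoisomerase of dividing cells. Levels below are counts per 1000000 UMIs (CPM) of a sum of cells, counted at the 3′ end of transcripts, and are compared between cells for 1 gene, never between genes. Several members have near-identical relatives or pseudogene copies in the genome (Eno1b and Aldoart1, for example), and reads that such copies share could not be assigned with certainty.

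The glycolysis genes differed first of all by cell type. Cells with at least 4300 UMIs were thinned to that number, 16049 of the 17752 gated cells. Shallower cells were left out, here and in all results at equal depth, and 60 of 116 stromal cells remained. In the thinned cells the median number of UMIs of the 10 genes together was 12 in γδ T cells and in germinal centre B cells. It was 11 in Foxp3-negative αβ T cells, Foxp3-positive T cells and ILC2. It was 9 in Eomes-positive T cells, 6 and 7 in Ighd-positive and Ighd-negative B cells, 5 in macrophages, Fscn1-positive dendritic cells and stromal cells, 6 in lymphatic endothelial cells and 2 in plasma cells. The medians of T cells, ILC2 and germinal centre B cells were thus above those of the other B cells and of the myeloid cells. Gapdh gave more UMIs than any other member in every type, so it weighs most in these sums. Plasma cells, whose mRNA is dominated by immunoglobulin, were lowest for 7 of the 10 genes.

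**Figure D1:**
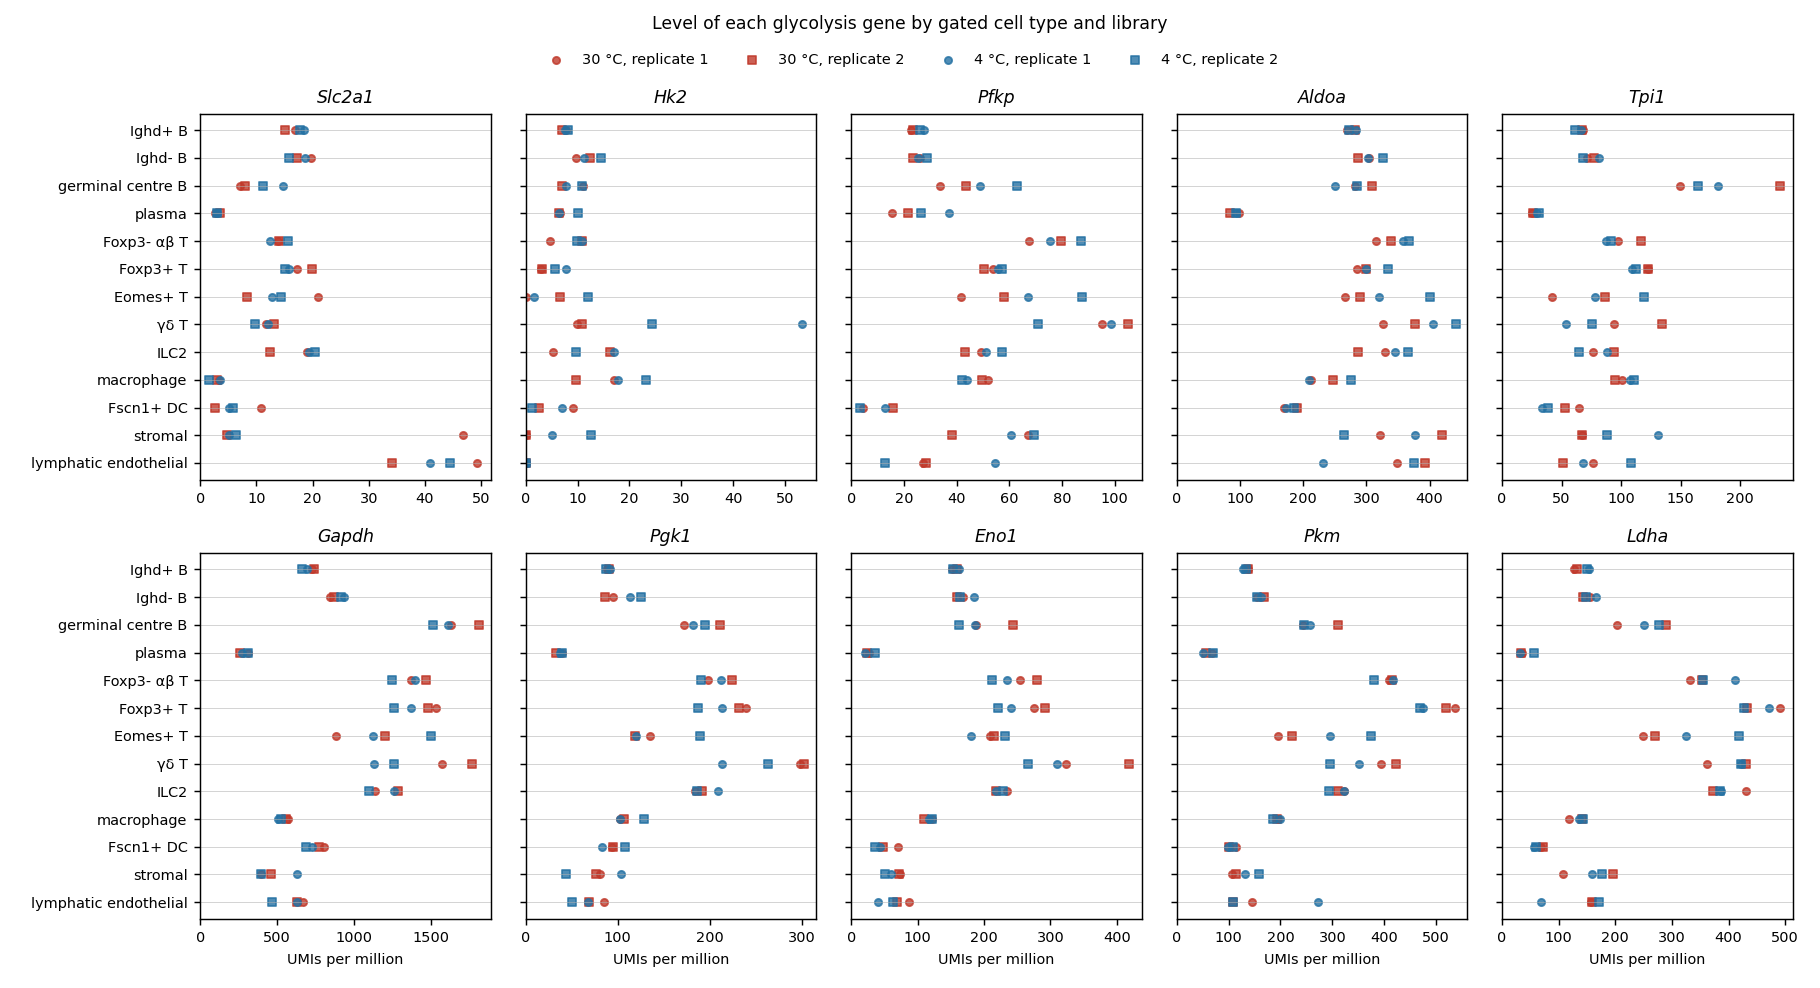
Level of each gene (x axis, CPM, linear, a scale of its own in each panel) in 13 gated cell types (y axis), with 1 point per library: red for 30 °C, blue for 4 °C, circles for replicate 1 and squares for replicate 2. Slc2a1 was highest in lymphatic endothelial cells (34.2 to 49.4) and low in macrophages and plasma cells, Tpi1 was highest in germinal centre B cells (149.8 to 233.8), and in most panels the red and blue points of a cell type lie close together.

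Slc2a1 (chr4:119108711-119137983 on mm10, plus strand) had a profile of its own. Its level in macrophages was 3.43 and 2.97 CPM at 30 °C against 3.52 and 1.65 CPM at 4 °C, from 23 UMIs in all. In Ighd-positive B cells it was 16.79 and 15.01 CPM at 30 °C against 18.4 and 17.8 CPM at 4 °C. Every macrophage sum was thus below every B cell sum, and the difference was −3.03 ± 0.21 on the log2 scale (SE, edgeR, adjusted p = 3.59e-06). The 4 sums of lymphatic endothelial cells, 34.2 to 49.4 CPM from 74 cells, lay above those of all other types but 1 stromal sum of 46.9 CPM, which came from 7 UMIs. Between these ends, 11 of the 12 neighbours in the order of the means overlapped. Slc2a1 was also lower in Foxp3-negative αβ T cells and in germinal centre B cells than in Ighd-positive B cells, by log2 differences of −0.71 ± 0.10 (adjusted p = 5.6e-05) and −0.91 ± 0.15 (adjusted p = 6.52e-05), 2 types in which most other members were higher. The CPM of the αβ T cell sums overlapped with those of the B cell sums, and on that scale the difference was −0.29 ± 0.10 (adjusted p = 0.0249).

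The scale matters between cell types. The tests use TMM scaling, which sets most genes level between a pair of types, while CPM divides by all UMIs, so a log2 difference in CPM was higher than that of the test by a median over all genes of 0.54 for macrophages against Ighd-positive B cells, 0.42 for Foxp3-negative αβ T cells against them and 0.19 for germinal centre B cells, and lower by −0.11 for ILC2 against αβ T cells. For the other pairs it moved by 0.06 or less, between cycling and other cells by −0.16 (Foxp3-positive T cells) to 0.09, and between temperatures by 0.01 to 0.11. The same edgeR test was therefore also run on total UMIs, a choice made after the values were seen, and its counts are given below, with values where it ends a call of a named member or turns its direction.

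Of the 6 pairs of cell types tested, the members called numbered 7 of 10 for Foxp3-negative αβ T cells against Ighd-positive B cells (6 higher and 1 lower), where 67.4% of all genes passed the same threshold. They numbered 8 of 10 for germinal centre against Ighd-positive B cells (6 higher, 2 lower, beside 62.4% of all genes) and 7 of 10 for macrophages against Ighd-positive B cells (2 higher, 5 lower, beside 69.5%). Against Foxp3-negative αβ T cells they numbered 6 of 10 for Foxp3-positive T cells (3 higher, 3 lower, beside 30.8%), 5 of 10 for ILC2 (3 higher, 2 lower, beside 33.4%) and 3 of 10 for γδ T cells (all higher, beside 28.3%). For Foxp3-negative αβ T cells, macrophages and γδ T cells the share of members called was near that of all genes. On total UMIs the calls were 8 higher and 1 lower for Foxp3-negative αβ T cells (beside 75.9% of all genes) and 7 higher and 1 lower for germinal centre B cells (beside 61.6%). They were 5 higher and 4 lower for macrophages (beside 69.5%) and 4 lower with none higher for ILC2 (beside 36.2%, near the share of members). The counts for Foxp3-positive T cells (beside 31.1%) and γδ T cells (beside 28.7%) were as on the TMM scale. The median log2 difference of the 10 members was 0.38 for αβ T cells, 0.72 for germinal centre B cells and −0.43 for macrophages, where the median of all genes tested was −0.01, −0.06 and −0.04. On total UMIs these medians of the members were 0.80, 0.91 and 0.11, beside 0.41, 0.12 and 0.50 for all genes, so that of macrophages turned in sign but stayed under that of all genes.

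Pfkp (chr13:6579768-6648777, minus strand) had the largest difference between these T cells and B cells among the members. It stood at 67.6, 79.7, 75.3 and 87.0 CPM in Foxp3-negative αβ T cells, in the order 30 °C replicates 1 and 2 and 4 °C replicates 1 and 2, and at 22.5, 23.6, 27.58 and 26.01 CPM in Ighd-positive B cells. The T cell sums were all above the B cell sums, by 1.21 ± 0.07 on the log2 scale after TMM scaling (adjusted p = 1.85e-08) and by 1.63 in CPM. Pkm, the last step to pyruvate (chr9:59656368-59679375, plus strand), was higher in the same T cells by 1.17 ± 0.05 (adjusted p = 2.15e-09) and Ldha (chr7:46841475-46855627, plus strand) by 0.95 ± 0.05 (adjusted p = 1.17e-08). Pkm was higher still in Foxp3-positive T cells, at 535.7, 518.2, 474.4 and 468.6 CPM against 409.2, 414.5, 417.8 and 379.8 CPM in Foxp3-negative αβ T cells. All 4 of these sums lay above those of every other type, and the difference was 0.28 ± 0.04 (adjusted p = 1.01e-04). Foxp3-positive T cells had in turn less Pfkp (−0.52 ± 0.07, adjusted p = 4.74e-05) and less Hk2 (−0.91 ± 0.21, adjusted p = 0.00459) than Foxp3-negative αβ T cells. Against the same αβ T cells, ILC2 had less Pfkp (−0.51 ± 0.09, adjusted p = 6.79e-04) and less Pkm (−0.26 ± 0.05, adjusted p = 0.00159), calls that total UMIs gave too. Slc2a1 (0.49 ± 0.17, adjusted p = 0.0343), Hk2 (0.53 ± 0.19, adjusted p = 0.0475) and Ldha (0.23 ± 0.07, adjusted p = 0.0194) were called higher in ILC2, and none of these 3 passed on total UMIs (adjusted p = 0.0946, 0.109 and 0.207).

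Among the kept cells, Tpi1 (chr6:124810586-124814296, minus strand) was highest in germinal centre B cells, the B cells that mutate and select their antibody genes. Its level there was 149.8 and 233.8 CPM at 30 °C against 181.5 and 164.8 CPM at 4 °C, and it was 60.9 to 68.1 CPM in the 4 sums of Ighd-positive B cells. No other cell type reached the lowest of the germinal centre sums, and the difference from Ighd-positive B cells was 1.29 ± 0.09 on the log2 scale (adjusted p = 4.9e-09). Gapdh (chr6:125161715-125166467, minus strand) was higher in germinal centre B cells by 1.03 ± 0.04 (adjusted p = 5.55e-12) and Pgk1 (chrX:106187100-106203699, plus strand) by 0.91 ± 0.07 (adjusted p = 1.68e-08). Aldoa (chr7:126795234-126800751, minus strand) was instead slightly lower, by −0.17 ± 0.06 (adjusted p = 0.0332), a direction that turned to 0.08 in cells without a Top2a UMI, to 0.06 without an upper limit on genes per cell and to 0.03 on total UMIs, where it did not pass (adjusted p = 0.746).

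Macrophages, which use glycolysis strongly when activated by bacterial products, had 5 members called lower and 2 called higher than Ighd-positive B cells after TMM scaling. Eno1 (chr4:150236721-150248879, plus strand) was lower by −0.96 ± 0.09 on the log2 scale (adjusted p = 1.99e-05), Gapdh by −0.93 ± 0.06 (adjusted p = 2.83e-06) and Aldoa by −0.78 ± 0.10 (adjusted p = 1.22e-04). On total UMIs these were −0.42, −0.38 and −0.24, and each still passed (adjusted p = 0.00301, 4.77e-04 and 0.0486). Ldha was lower by −0.61 after TMM scaling (adjusted p = 2.5e-04) but not on total UMIs (−0.06, adjusted p = 0.545), and its CPM overlapped, with means of 134.4 in macrophages and 140.4 in the B cells. Hk2 and Pfkp were higher in macrophages, by 0.59 ± 0.20 (adjusted p = 0.0252) and 0.37 ± 0.12 (adjusted p = 0.028) after TMM scaling and by 1.13 and 0.91 on total UMIs. After TMM scaling both calls were lost at equal depth (adjusted p = 0.111 and 0.257) and without either of 2 libraries, those at 4 °C for Hk2 (adjusted p = 0.103 and 0.111) and those at 30 °C for Pfkp (adjusted p = 0.102 and 0.0926). Tpi1, Pgk1 and Pkm did not pass after TMM scaling (0.11, −0.25 and −0.02). On total UMIs they were higher in macrophages by 0.66 (adjusted p = 4.88e-04), 0.29 (adjusted p = 0.0332) and 0.53 (adjusted p = 4.63e-04), so that Pgk1 and Pkm turned in sign, and every macrophage sum of these 3 genes, of Hk2 and of Pfkp was above every B cell sum in CPM. Eno1 and Pgk1 were higher in γδ T cells than in Foxp3-negative αβ T cells, by 0.47 ± 0.09 (adjusted p = 0.00184) and 0.43 ± 0.10 (adjusted p = 0.00927), and so was Hk2 (1.29 ± 0.34, adjusted p = 0.0128), whose call was lost without 4 °C replicate 1 (0.68, adjusted p = 0.0904) and with 3 markers asked for in the gate (0.50, adjusted p = 0.262). The number of members called for γδ T cells rose from 3 to 6 in cells without a Top2a UMI.

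Across the 52 sums of 13 cell types and 4 libraries, the 10 genes followed a common profile to different degrees. The correlation of a gene's log2 level with the mean profile of the 10, of which each is a part, was 0.954 for Ldha, 0.945 for Eno1, 0.932 for Pkm, 0.915 for Pgk1 and 0.891 for Gapdh. It was 0.799 for Aldoa, 0.769 for Tpi1, 0.694 for Pfkp and 0.427 for Slc2a1, and Hk2 was below the level of 10 CPM on average asked for in this comparison. Outside the members, the genes most like the profile among 8356 genes were Oaz1 (r = 0.948), an inhibitor of polyamine synthesis, Clic1 (r = 0.940), an intracellular chloride channel protein, Ssb (r = 0.938), an RNA-binding protein, Hnrnpa3 (r = 0.932), a further RNA-binding protein, and Exosc8 (r = 0.930), a subunit of the RNA exosome. The sums of 1 library share mice and depth, so the correlations are descriptions.

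In the 6 lymphoid types tested, cycling cells had higher levels of most genes of the lower pathway than the other cells of their own type. The comparison was made within a library, in the types with at least 20 cycling and 20 other cells in every library. Macrophages had too few for it. At equal depth their median of the 10 genes together was 5 UMIs in 52 cycling and in 631 other cells. That median was 7.5 against 2 in plasma cells, 12.5 against 8 in Eomes-positive T cells and 15 against 11.5 in γδ T cells. These medians pool the libraries and were not tested. Beside Top2a, which the rule used, all 11 genes of the cell cycle list were higher in the cycling cells of each of the 6 types, with medians of 2.5 to 4.05 on the log2 scale. Gapdh, Pgk1 and Pkm were called higher in 6 of 6 types, Tpi1 and Ldha in 5 of 6, Eno1 in 2 of 6 and Hk2 in 1 of 6. Aldoa was called lower in 4 of 6, and Slc2a1 and Pfkp were called in none.

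The members called numbered 7 of 10 in Foxp3-positive T cells (6 higher, 1 lower), where 45.4% of all genes passed (24.1% higher, 21.3% lower), and 6 of 10 in Foxp3-negative αβ T cells (all higher, beside 34.6% of all genes, 19.5% higher). They numbered 5 of 10 in ILC2 (4 higher, 1 lower, beside 28.7%, of them 15.3% higher and 13.4% lower), 6 of 10 in germinal centre B cells (5 higher, 1 lower, beside 27.5%, of them 15.7% higher and 11.8% lower), 7 of 10 in Ighd-positive B cells (6 higher, 1 lower, beside 23.2%, of them 13.6% higher and 9.62% lower) and 4 of 10 in Ighd-negative B cells (all higher, beside 10.1%, of them 6.68% higher and 3.41% lower). In each type the share of members called was above that of all genes. The median log2 difference of the members ran from 0.15 in ILC2 to 0.68 in Foxp3-positive T cells, and the median of all genes tested from −0.06 to −0.02. On total UMIs 2 members were lower in Foxp3-positive T cells, 5 were higher in ILC2 and 5 in Ighd-negative B cells, and the other counts were as given. The share of all genes called on that scale was 50.6%, 28.4% and 10.7% in these types and 22.6% to 37.4% in the others. Cycling cells were also deeper, with medians of 12769 to 15395 UMIs against 5234.5 to 5912 in Foxp3-positive T cells. At equal depth, 7 members were called in Foxp3-positive T cells, 5 in Foxp3-negative αβ T cells, 4 each in ILC2, germinal centre B cells and Ighd-positive B cells, and 1 in Ighd-negative B cells. The share of all genes called at equal depth is not given here, so these counts cannot be set against it.

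**Figure D2:**
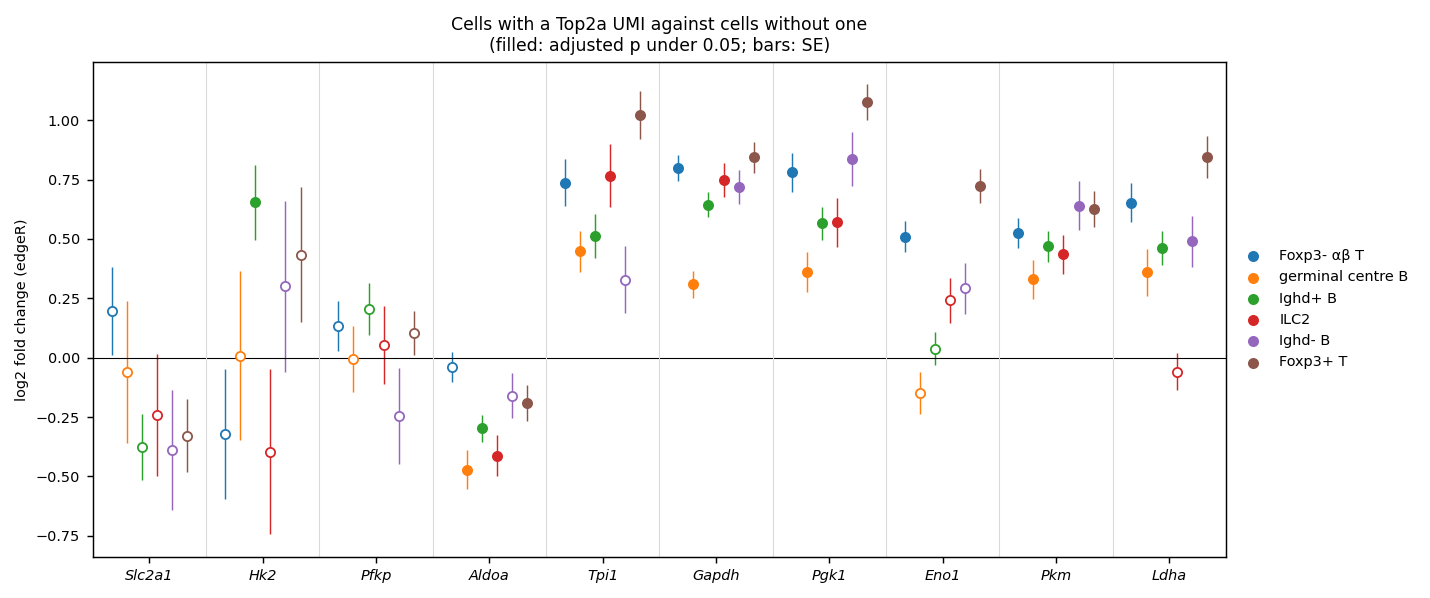
Log2 fold change (y axis, edgeR) of each gene (x axis) between cells with and without a Top2a UMI, within library, in 6 cell types given by colour. Points are estimates, bars are SE, and filled points passed an adjusted p of 0.05. Gapdh, Pgk1 and Pkm are filled and above 0 in all 6 types, and Aldoa lies below 0 in each.

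Foxp3-positive T cells had the largest median difference of the members, and the largest estimates for Pgk1, Tpi1 and Eno1. The largest estimates of Pkm (0.64) and Hk2 (0.654) were in other types. Pgk1, which makes the first ATP of the lower pathway, stood at 331, 309, 294 and 258 CPM in cycling cells and at 153, 172, 155 and 148 CPM in the others, in the order 30 °C replicates 1 and 2 and 4 °C replicates 1 and 2. The lowest cycling sum was above the highest of the others, with a difference of 1.08 ± 0.08 on the log2 scale (adjusted p = 1.55e-09). Tpi1 differed by 1.02 ± 0.10 (adjusted p = 1.51e-07), Gapdh and Ldha both by 0.84, with SE of 0.06 and 0.09 (adjusted p = 5.68e-09 and 3.04e-07), Eno1 by 0.72 ± 0.07 (adjusted p = 2.33e-07) and Pkm by 0.63 ± 0.08 (adjusted p = 2.47e-06). In Foxp3-negative αβ T cells the same 6 genes differed by 0.51 ± 0.07 (Eno1) to 0.80 ± 0.05 (Gapdh), with adjusted p of 1.67e-05 or less. A test of the difference between these 2 T cell types in the cycling effect, chosen after the values were seen, called none of the 10 members beside 0.454% of all genes (edgeR, 3 members at an unadjusted p under 0.05 and none called by DESeq2). Fabp4, a gene of adipocytes and endothelium, was lower in the cycling Foxp3-positive T cells (−3.40 ± 0.31, adjusted p = 7.32e-08), the only 1 of 10 markers of other cells high enough to be tested there, and its part in these differences was not tested.

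In Ighd-positive B cells, of which 10.1% held a Top2a UMI, Gapdh stood at 984, 1184, 1095 and 907 CPM in the cycling cells and at 673, 661, 616 and 619 CPM in the others. All cycling sums were higher, by 0.64 ± 0.05 on the log2 scale (adjusted p = 4.19e-08). Pgk1 (0.57 ± 0.07), Tpi1 (0.51 ± 0.09), Pkm (0.47 ± 0.06) and Ldha (0.46 ± 0.07) were higher as well, with adjusted p of 4.29e-04 or less. Hk2 was higher by 0.65 ± 0.16 (adjusted p = 0.0057), at 10.9, 10.5, 10.6 and 13.2 CPM against 7.01, 6.34, 7.09 and 7.36 CPM. No sum of the cycling cells overlapped with the others, yet the difference shrank to 0.07 at equal depth (adjusted p = 0.974), where the calls of Tpi1 (0.15, adjusted p = 0.736) and Pgk1 (0.20, adjusted p = 0.561) were lost too. The same test of the cycling effect against Foxp3-negative αβ T cells called Hk2 and Eno1 in Ighd-positive B cells, beside 6.0% of all genes, and no member in Ighd-negative B cells, beside 1.45% (edgeR and DESeq2, none at an unadjusted p under 0.05).

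Germinal centre B cells, of which 56.0% held a Top2a UMI, had smaller differences. Gapdh was 1724, 1940, 1753 and 1673 CPM in cycling cells and 1470, 1499, 1288 and 1267 CPM in the others, a difference of 0.31 ± 0.06 on the log2 scale (adjusted p = 5.97e-05). The level in germinal centre B cells without a Top2a UMI was thus already above that of the cycling Ighd-positive B cells. Tpi1 differed by 0.45 ± 0.09, Pgk1 by 0.36 ± 0.09, Ldha by 0.36 ± 0.10 and Pkm by 0.33 ± 0.08, with adjusted p of 0.00617 or less. The call of Ldha was lost by DESeq2 (0.31, adjusted p = 0.204) and without replicate 2 at 30 °C or at 4 °C (0.22 and 0.24, adjusted p = 0.174 and 0.128), that of Pgk1 at equal depth (0.20, adjusted p = 0.31) and with cycling called by Mki67 (0.23, adjusted p = 0.0574), and that of Pkm at equal depth (0.24, adjusted p = 0.168). Eno1 did not pass (−0.15 ± 0.09). The cycling difference was smaller than in Foxp3-negative αβ T cells for Gapdh, Pgk1 and Eno1 and more negative for Aldoa, by a test of the difference (edgeR, chosen after the values were seen) that called 4 of 10 members beside 9.04% of all genes. On total UMIs it called 2, Gapdh and Eno1.

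Aldoa, the aldolase of most tissues, was called lower with cycling where it was called at all, unlike the members called higher. In germinal centre B cells it stood at 246, 296, 217 and 252 CPM in cycling cells and at 348, 346, 329 and 336 CPM in the others. Every cycling sum was below every other sum, by −0.47 ± 0.08 on the log2 scale (adjusted p = 2.09e-05). The difference was −0.41 ± 0.09 in ILC2 (adjusted p = 7.15e-04), −0.30 ± 0.06 in Ighd-positive B cells (adjusted p = 7.34e-04) and −0.19 ± 0.08 in Foxp3-positive T cells (adjusted p = 0.0498), where the call was lost without any one of 3 libraries (adjusted p of 0.102 to 0.192) and by DESeq2 (adjusted p = 0.117). In Ighd-negative B cells and Foxp3-negative αβ T cells it did not pass (−0.16 ± 0.10 and −0.04 ± 0.06). Without the upper limit on genes per cell the difference was −0.04 in germinal centre B cells (adjusted p = 0.707) and −0.19 in ILC2 (adjusted p = 0.0537), that of Ighd-positive B cells was −0.17 (adjusted p = 0.0236), and that of Foxp3-positive T cells was 0.08 and so turned in sign. The symbol belongs to 2 features that lie side by side, and the second (chr7:126800790-126809108, minus strand) held 1 UMI in the gated cells and was not counted with the first.

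With the cells of at least 4300 UMIs thinned to that number and sorted by the Top2a UMIs left, Gapdh and Aldoa moved apart. In Foxp3-positive T cells, Gapdh was 1098 ± 77 CPM (SD, n = 4 libraries) with 0 Top2a UMIs, 1306 ± 147 CPM with 1, 1825 ± 176 CPM with 2 to 3 and 1663 ± 148 CPM with 4 or more. Aldoa was 329 ± 25, 278 ± 40, 204 ± 62 and 162 ± 66 CPM in the same order. The mean of Gapdh thus levelled off after 2 to 3 Top2a UMIs, while that of Aldoa went on falling. In Ighd-positive B cells Aldoa was 278 ± 8.5 CPM with 0 Top2a UMIs and 89.3 ± 53.3 CPM with 4 or more, where Gapdh was 599 ± 31 and 1310 ± 184 CPM. In Foxp3-negative αβ T cells, where the test of all cycling cells had found no difference, Aldoa was 339 ± 18, 362 ± 54, 313 ± 16 and 228 ± 21 CPM. These are levels without a test, and the highest bin held 48 to 163 cells a type.

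**Figure D3:**
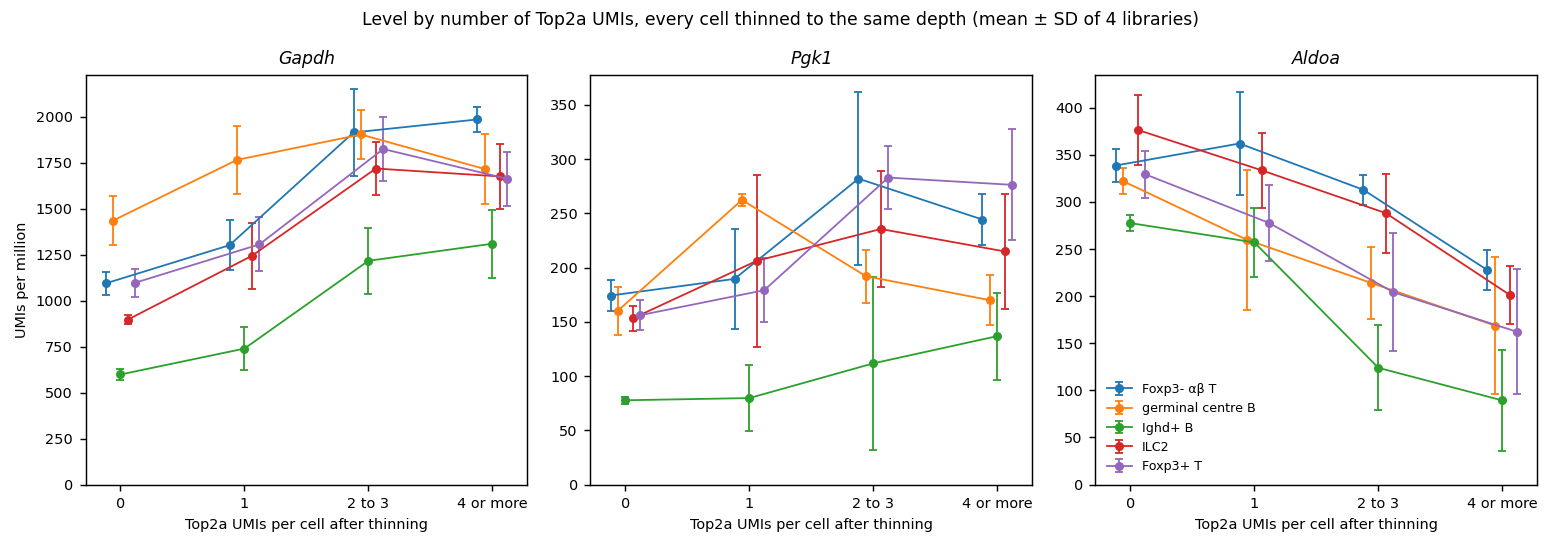
Level (y axis, CPM, linear from 0) of Gapdh, Pgk1 and Aldoa against the number of Top2a UMIs per cell (x axis, 4 bins), in 5 cell types given by colour. Cells with at least 4300 UMIs were thinned to that number, and the others were left out. Points are means and bars SDs over 4 libraries. Gapdh is about 1310 or above in the highest bin of every type and Aldoa is lowest there.

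Among the kept cells, ILC2 left Ldha out of the common change. Ldha stood at 411, 352, 394 and 398 CPM in cycling ILC2 and at 447, 389, 376 and 375 CPM in the others, and these sums overlapped (−0.06 ± 0.08 on the log2 scale). Gapdh (0.75 ± 0.07, adjusted p = 5.06e-09), Tpi1 (0.77 ± 0.13, adjusted p = 8.27e-05), Pgk1 (0.57 ± 0.10, adjusted p = 1.2e-04) and Pkm (0.44 ± 0.08, adjusted p = 2.36e-04) were higher in the same cells. The cycling difference of Ldha was smaller in ILC2 than in Foxp3-negative αβ T cells by −0.63 ± 0.12 (edgeR interaction, adjusted p = 0.00603). This test was chosen after the values were seen and called 1 member beside 0.803% of all genes. Its estimate for Ldha was −0.96 to −0.56 over the alternatives run. The upper limit on genes per cell had removed 44 ILC2, all with a Top2a UMI. Ldha was 1006 CPM in them against 392.2 CPM in the kept ILC2. The difference of Ldha within ILC2 with these cells counted is not given here.

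The upper limit of 5000 genes per cell removed cells that bear on these values. Among gated cells it took out 846, of which 96% held a Top2a UMI, against 18.6% of the cells kept. In the 9 types with at least 20 such cells, Tpi1 was 1.83 (germinal centre B cells) to 11.5 times (plasma cells) its level in the kept cells, Ldha 2.28 to 19.9 times Gapdh 1.41 to 7.36 times and Aldoa 1.22 to 4.11 times. Slc2a1 was 0.782 to 1.02 times its level in the kept cells in all of them but plasma cells. With these cells counted, 8 members were called in Foxp3-positive T cells, 8 in Foxp3-negative αβ T cells, 10 in Ighd-positive B cells, 7 in Ighd-negative and in germinal centre B cells and 6 in ILC2. The share of all genes called with these cells is not given here, so the counts cannot be set against it.

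Other genes of the pathway were followed by lists. Of the 15 further isoforms and steps of glycolysis, Pgam1, the phosphoglycerate mutase between Pgk1 and Eno1, was higher in the cycling cells of 5 of 6 types, from 0.38 ± 0.09 in germinal centre B cells to 0.68 ± 0.09 in Foxp3-positive T cells. Slc16a1, a carrier that exports lactate, was higher in cycling Foxp3-positive T cells (0.81 ± 0.21, adjusted p = 0.00503), Ighd-positive B cells (0.92 ± 0.30, adjusted p = 0.0352) and Foxp3-negative αβ T cells (0.57 ± 0.21, adjusted p = 0.0437). The other lactate dehydrogenase subunit, Ldhb, was lower in both cycling T cell types, by −0.49 ± 0.12 and −0.48 ± 0.12. In Foxp3-positive T cells 2 of 11 tested genes of this list were higher and 3 lower, with a median of 0.08.

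Branches of the pathway moved in part. Of 7 genes of the pentose phosphate pathway, 4 were higher and none lower in cycling Foxp3-positive T cells, led by Tkt (transketolase, 0.96 ± 0.09, adjusted p = 1.65e-07), and 3 were higher and none lower in Foxp3-negative αβ T cells. Of 13 genes of the tricarboxylic acid cycle, 9 were higher in cycling Foxp3-positive T cells and 7 in Foxp3-negative αβ T cells, 4 each in ILC2 and Ighd-positive B cells, 2 in germinal centre and 1 in Ighd-negative B cells, and none was lower in any. Of all genes, 24.1% were higher in cycling Foxp3-positive T cells and 19.5% in Foxp3-negative αβ T cells. Idh3a led in Foxp3-positive T cells (0.93 ± 0.11, adjusted p = 1.49e-06). Among regulators of the flux, Pdk1, a kinase that shuts pyruvate dehydrogenase, was lower in cycling Foxp3-negative αβ T cells (−1.14 ± 0.15, adjusted p = 1.36e-05), Foxp3-positive T cells (−0.53 ± 0.14, adjusted p = 0.00626) and Ighd-positive B cells (−0.43 ± 0.12, adjusted p = 0.0177). Its paralog Pdk3 was higher in the cycling cells of 5 of 6 types, by 0.44 to 0.87.

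Genes of the hypoxia list, outside glycolysis, moved in both directions. In cycling Foxp3-positive T cells 2 of 11 tested were higher (Ndrg1, 0.48 ± 0.17, and Higd1a, 0.36 ± 0.08) and 2 lower (Hif1a itself, −0.33 ± 0.07, and Ddit4, −0.30 ± 0.11), with a median of 0.03, and in germinal centre B cells 1 of 9 was higher and 4 lower. Of the MYC and growth list, 4 of 9 were higher and 3 lower in cycling Foxp3-positive T cells, and none of 8 was higher and 3 were lower in ILC2. Of the stress genes of tissue dissociation, 6 of 7 were lower in cycling Foxp3-positive T cells, 4 of 7 in Foxp3-negative αβ T cells and 4 of 8 in ILC2, and none was higher in any of the 6 types. Of all genes, 21.3% were lower in cycling Foxp3-positive T cells and 13.4% in ILC2, and 1518 of 10102 in Foxp3-negative αβ T cells. The part of the stress genes in the differences of the members was not tested.

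Few of these genes were called between the temperature groups. Only the 4 °C group had a stay at room temperature before, so a difference cannot be credited to the 4 h at 4 °C alone. Of 111 tests of a member in a cell type, over 12 types, 6 passed, 1 higher and 5 lower at 4 °C. An unadjusted p under 0.05 (edgeR) was found in 29 of the 111. With so few libraries, a member that was not called is not shown to be unchanged. The 6 calls were Hk2, Tpi1 and Gapdh in γδ T cells, Gapdh and Pkm in Ighd-positive B cells and Eno1 in Foxp3-positive T cells. With 2 libraries a group, the groups often separate fully by chance. Where the temperature groups are said below not to overlap, this describes the values and adds no support to a call. In γδ T cells 3 of 10 members were called beside 7.64% of all genes, in Ighd-positive B cells 2 of 10 beside 15.6%, and in Foxp3-positive T cells 1 of 10 beside 2.82%. Of all genes, 15.4% were called in macrophages, 5.78% in ILC2, 4.22% in Ighd-negative B cells, 2.32% in Foxp3-negative αβ T cells, 1.06% in germinal centre B cells and under 1% (0.167% to 0.965%) in the remaining types. In these 9 types edgeR and DESeq2 called none of 81 member tests, and 13 of them had an unadjusted p under 0.05.

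**Figure D4:**
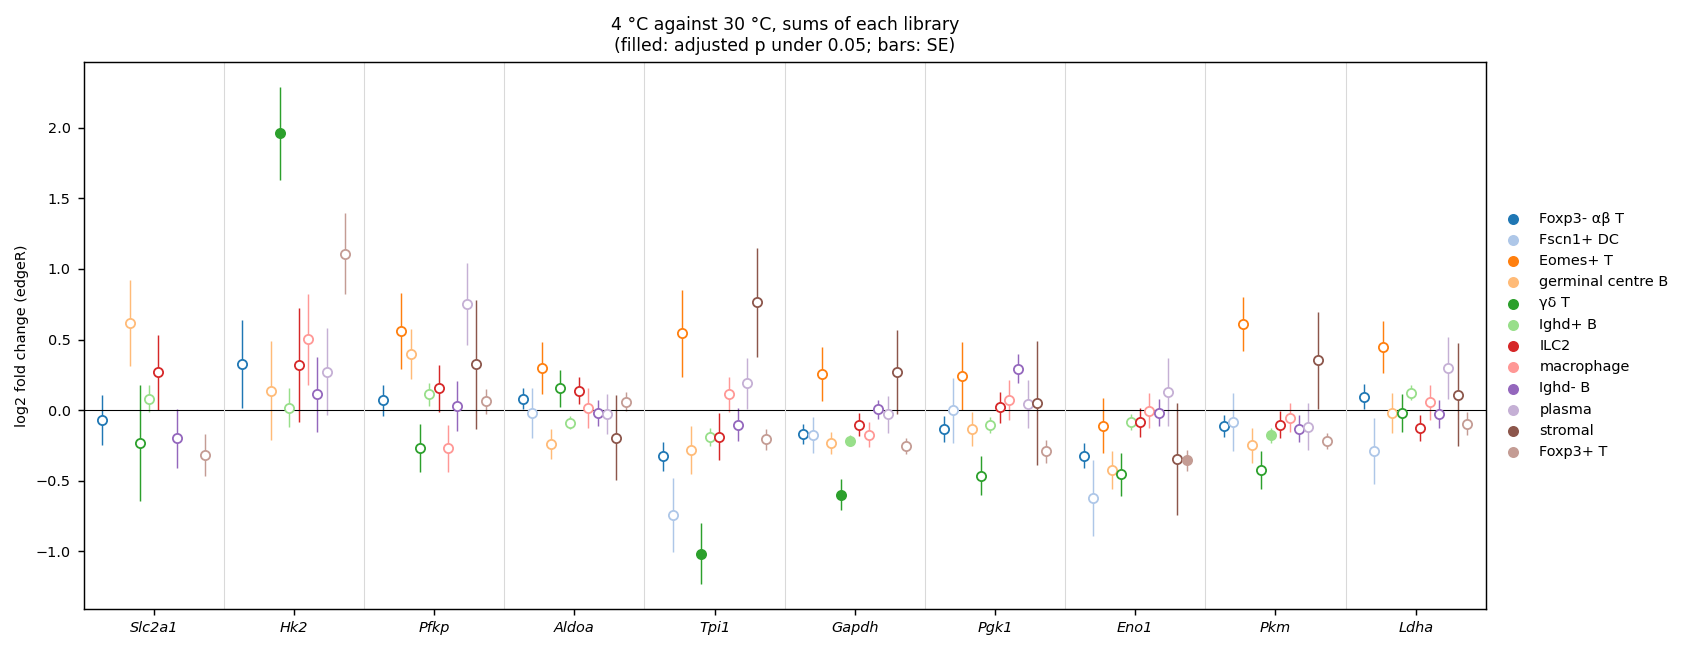
Log2 fold change (y axis, edgeR) of each gene (x axis) at 4 °C against 30 °C in 12 cell types given by colour. Points are estimates, bars are SE, and filled points passed an adjusted p of 0.05. Most points are open and close to 0, and Hk2 in γδ T cells, at 1.96, is the highest.

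Macrophages are an example of a cell type that differed between the temperatures, with 15.4% of all genes called, while none of its 9 tested members was. Their differences ran from −0.27 ± 0.16 on the log2 scale (Pfkp) to 0.50 ± 0.32 (Hk2), with a median of 0.01, none had an unadjusted p under 0.05, and DESeq2 called none. Slc2a1 was too low there to be tested. In the same cells Pfkfb3, whose product makes the activator of phosphofructokinase, fell from 159 and 178 CPM at 30 °C to 33.2 and 33.0 CPM at 4 °C. The libraries did not overlap, and the difference was −2.38 ± 0.14 (adjusted p = 7e-07). Macrophages were not divided further, so a change of level and a change in which macrophages the sort held cannot be told apart. Ddit4, a stress gene counted among the hypoxia targets, was at 386 and 330 CPM in macrophages at 30 °C and at 3.52 and 0 CPM at 4 °C, and it was lower at 4 °C in 10 further types, by −1.39 ± 0.12 in Foxp3-negative αβ T cells to −4.35 ± 0.52 in stromal cells. Of the 8 genes of the hypoxia list tested in macrophages 5 were lower and none higher. All 3 markers of other cells that could be tested there, of 10, were lower at 4 °C too (Ppbp, −1.92, Fabp4, −1.18, and Pf4, −0.44), Pf4 being also a gene of macrophages themselves.

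In Ighd-positive B cells 15.6% of the genes tested were called, and the member changes that passed were the smallest of the 6. Gapdh was 727 and 743 CPM at 30 °C against 697 and 662 CPM at 4 °C, and Pkm was 138 and 138 CPM at 30 °C against 129 and 133 CPM at 4 °C. The libraries of the groups did not overlap in either gene, with differences of −0.22 ± 0.04 (adjusted p = 0.0017) and −0.18 ± 0.05 (adjusted p = 0.0257) on the log2 scale. Without the upper limit on genes per cell these were −0.05 (adjusted p = 0.529) and 0.02 (adjusted p = 0.894), so that Pkm turned in sign. The call of Pkm was also lost without any one of 3 libraries (−0.16 to −0.19, adjusted p of 0.0798 to 0.182). On total UMIs Gapdh was lower by −0.11 (adjusted p = 0.0451), Pkm did not pass (−0.08, adjusted p = 0.312) and Ldha was called higher. Of 10 markers of other cells, Fabp4 stood at 37.1 and 30.2 CPM in these B cells at 30 °C and at 3.98 and 5.61 CPM at 4 °C, and its part in the changes was not tested. Pgam1 was higher (0.30 ± 0.06, adjusted p = 0.00308), at 62.0 and 61.3 CPM against 84.8 and 78.8 CPM, and Pdk1 lower (−0.52 ± 0.09, adjusted p = 7.61e-04). Pdk1 was also lower at 4 °C in Foxp3-negative αβ T cells (−0.65 ± 0.12, adjusted p = 0.0185) and in ILC2 (−1.18 ± 0.25, adjusted p = 0.00917).

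In Foxp3-positive T cells, Eno1 was 275 and 292 CPM at 30 °C against 240 and 221 CPM at 4 °C, lower by −0.36 ± 0.07 on the log2 scale (adjusted p = 0.0427). The groups did not overlap, but the call was lost in cells without a Top2a UMI (−0.23, adjusted p = 0.197), on total UMIs (−0.30, adjusted p = 0.0505) and without any one of 3 of the 4 libraries, namely 30 °C replicate 1 (−0.40), 30 °C replicate 2 (−0.32) and 4 °C replicate 2 (−0.29), with adjusted p of 0.147 to 0.224. One group then holds a single library, which is assumed to vary like those of the other group. Gapdh (−0.26 ± 0.06, adjusted p = 0.0518) and Hk2 (1.11 ± 0.29, adjusted p = 0.084) missed the threshold. Hk2 stood there at 2.90 and 3.08 CPM at 30 °C and at 7.73 and 5.60 CPM at 4 °C, from 123 UMIs. With the replicate number as a block 4 members were called in these cells. Of the stress genes of dissociation, Junb, Fos and Egr1 were higher at 4 °C in Foxp3-positive T cells, by 0.51 to 0.59, and their part in the changes of the members was not tested.

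γδ T cells gave the largest changes, on few cells. The libraries held 184 and 192 of them at 30 °C and 97 and 36 at 4 °C. Hk2 (chr6:82725025-82774454, minus strand) was 9.98 and 10.8 CPM at 30 °C, from 23 and 27 UMIs, and 53.4 and 24.4 CPM at 4 °C, from 53 and 10 UMIs. Both libraries at 4 °C lay above both at 30 °C, and the difference was 1.96 ± 0.33 on the log2 scale (edgeR, adjusted p = 7.89e-04). It was 1.59 in cells without a Top2a UMI (adjusted p = 0.00821), 1.83 without the upper limit on genes (adjusted p = 0.0118) and 1.12 without 4 °C replicate 1 (adjusted p = 0.343). With 3 markers asked for in the gate it was 1.63 (adjusted p = 0.157), and DESeq2 gave no adjusted p for it.

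Tpi1 and Gapdh went the other way in γδ T cells. Tpi1 was 94.2 and 134 CPM at 30 °C against 53.4 and 75.7 CPM at 4 °C (−1.02 ± 0.21, adjusted p = 0.00524), and Gapdh was 1577 and 1771 CPM at 30 °C against 1132 and 1260 CPM at 4 °C (−0.60 ± 0.11, adjusted p = 0.00187). The groups did not overlap in either gene, which adds no support, because both genes were picked by a test on the same values. Without 4 °C replicate 1, with a single library left in that group and its spread taken from the other, neither passed (−0.70, adjusted p = 0.284, and −0.52, adjusted p = 0.0631), nor did Tpi1 without 30 °C replicate 2 (−0.72, adjusted p = 0.0582) or by DESeq2 (adjusted p = 0.0522). The share of γδ T cells with a Top2a UMI was 45.1% and 35.9% at 30 °C and 18.6% and 33.3% at 4 °C, with 95% exact binomial intervals of 37.8% to 52.6%, 29.2% to 43.2%, 11.4% to 27.7% and 18.6% to 51.0%. An exact permutation test over the 4 libraries gave p = 0.33, the smallest it can give. In stromal cells, which are mostly not dividing, 5.17% held such a UMI at a median depth of 4710 UMIs, against 8990 in γδ T cells. Of the 12 genes of the cell cycle list, 11 were lower in γδ T cells at 4 °C, with a median of −1.20 on the log2 scale.

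In γδ T cells without a Top2a UMI, Tpi1 was 42.0 and 52.7 CPM at 30 °C against 53.8 and 54.5 CPM at 4 °C, a difference of 0.11 (adjusted p = 0.908). Gapdh was 1067 and 1039 CPM at 30 °C against 1004 and 1026 CPM at 4 °C in these cells (−0.12, adjusted p = 0.621). The libraries of the groups still did not overlap, but the differences were small, that of Tpi1 turned in sign and neither passed, while Hk2 did. With no upper limit on genes, Tpi1 was 221 and 282 CPM at 30 °C against 243 and 305 CPM at 4 °C (0.03, adjusted p = 0.961). A direct test of the 4 °C response between γδ T cells and Foxp3-negative αβ T cells called none of the 10 members beside 2.09% of all genes (edgeR and DESeq2, 4 at an unadjusted p under 0.05, a pair chosen after the values were seen), with 1.56 ± 0.44 for Hk2 (adjusted p = 0.0685) and −0.42 ± 0.11 for Gapdh (adjusted p = 0.0509). Of the dissociation genes, Egr1, Junb, Fosb and Fos were higher in γδ T cells at 4 °C, by 0.71 to 1.61, and their part was not tested.

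**Figure D5:**
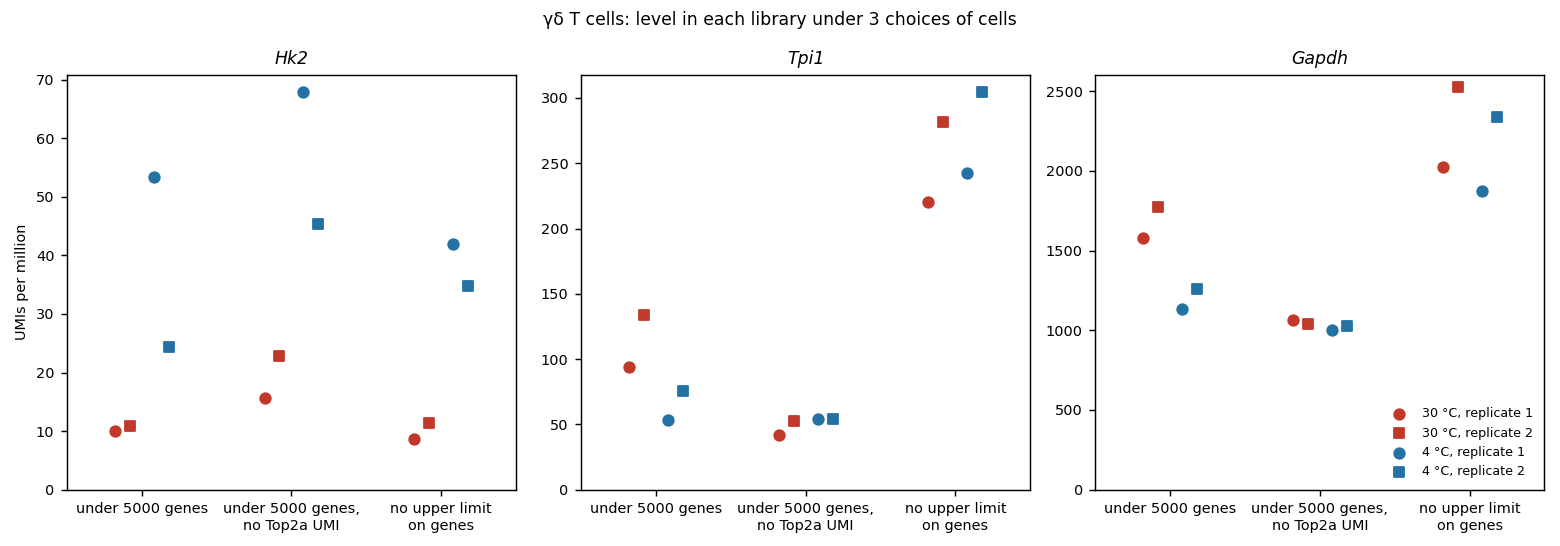
Level (y axis, CPM, linear from 0) of Hk2, Tpi1 and Gapdh in γδ T cells of each library under 3 choices of cells (x axis), red for 30 °C and blue for 4 °C, circles for replicate 1 and squares for replicate 2. Hk2 is higher at 4 °C under each choice, while the lower Tpi1 and Gapdh at 4 °C passed the test only in the first, which holds all cells with under 5000 genes.

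The response to 4 °C was also compared between cell types and between cycling and other cells. Between macrophages, Ighd-positive B cells and Foxp3-negative αβ T cells, none of 30 member tests passed, and within the 6 types with cycling cells none of 60 passed, of which 7 had an unadjusted p under 0.05. DESeq2 called none of them either. Of all genes, 5.81% differed in response between macrophages and Ighd-positive B cells, 5.5% between macrophages and αβ T cells and 2.35% between Ighd-positive B cells and αβ T cells. Between cycling and other cells, 0.211% differed in germinal centre B cells, 0.0493% in Foxp3-positive T cells, 0.0465% in Ighd-positive B cells, 0.0198% in αβ T cells and none in the remaining 2 types. In ILC2 the neuronal-type glucose transporter Slc2a3 was higher at 4 °C, at 33.2 and 36.8 CPM against 17.1 and 18.9 CPM (0.88 ± 0.22, adjusted p = 0.0237), and in γδ T cells Tkt was lower (−0.74 ± 0.16, adjusted p = 0.00685).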

How the data were processed

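Single cells were profiled by 10x Genomics 3′ sequencing in 4 libraries, 2 per temperature. The deposited files hold raw UMI counts per gene and barcode, which the authors made with Cell Ranger (3.1.0 in the submitters' processing notes, 3.0.0 in the matrix header) and mm10. No strand setting beyond this is given in the sources used here.

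Cells with 200 or fewer genes, 5000 or more genes, or at least 7.5% mitochondrial UMIs were left out, after the study's limits. For these limits, only genes seen in at least 10 cells of a library were counted. The sums of counts held all genes. Cell types were gated by required markers, 2 of a marker list and the absence of markers of other types. The gate of ILC2 left out Cd3e and Cd3d but not Cd3g. No authors' annotation was used, so names may differ from the study's. Doublets were kept in the main analysis, and Scrublet marked 514 cells (2.42%). Counts were summed per library, type and cycling state and went into edgeR 4.0.16 (R 4.3.3), whose quasi-likelihood test was run on TMM-scaled libraries with p-values adjusted after Benjamini and Hochberg over all genes tested (threshold 0.05), for sums of at least 20 cells between cycling and other cells. Standard errors are the log2 fold change over the root of F. Tests were run on simulated data first. DESeq2 1.42.0, other filters, gates and depths, a replicate block and leaving out each library were alternatives. Intervals cover counting error only.

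The values of all 10 members were computed in every comparison and given for those the results turn on, and from lists the genes past the threshold, at most 5 a list and comparison. The members and lists were chosen with earlier results of these data known. The tests of the cycling effect between types, the 4 °C response of γδ against αβ T cells the levels in cells above the gene limit and the fits on total UMIs in place of TMM were added after values were seen.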

Additional observations from a re-analysis of the deposited data

Results flagged for a closer look

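The difference between cycling and other cells was itself compared between each cell type and Foxp3-negative αβ T cells, a test chosen after the values were seen (edgeR, adjusted over all genes tested). It differed in 7 of 50 member tests, and DESeq2 called 5. In germinal centre B cells the cycling effect was more negative, or less positive, for Eno1 by −0.74 ± 0.11 on the log2 scale (SE, adjusted p = 6.85e-05), Gapdh by −0.56 ± 0.08 (adjusted p = 4.57e-05), Aldoa by −0.51 ± 0.10 (adjusted p = 0.00218) and Pgk1 by −0.50 ± 0.12 (adjusted p = 0.00735). Pgk1 passed in 10 of 16 alternatives and not, for example, at equal depth (−0.24, adjusted p = 0.539), by DESeq2 (adjusted p = 0.0542) or on total UMIs (−0.27, adjusted p = 0.162). It was also lost without 30 °C replicate 2 (adjusted p = 0.0644) and without 4 °C replicate 1 (adjusted p = 0.0553). Aldoa was lost without the upper limit on genes (−0.24, adjusted p = 0.108) and on total UMIs (−0.28, adjusted p = 0.0891). In Ighd-positive B cells it was larger for Hk2 by 1.07 ± 0.32 (adjusted p = 0.0497) and smaller for Eno1 by −0.38 ± 0.10 (adjusted p = 0.0245), and Eno1 did not pass at equal depth (−0.46, adjusted p = 0.0884) or on total UMIs (−0.33, adjusted p = 0.0511), while Hk2 was not tested at equal depth and passed in 7 of 15 alternatives. In ILC2 it was smaller for Ldha by −0.63 ± 0.12 (adjusted p = 0.00603). The share of all genes called was 9.04% for germinal centre B cells, 6.0% for Ighd-positive B cells and 0.803% for ILC2. With 2 libraries a group, no single library could be tested for standing apart.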

How the results depend on the processing

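Of the 36 calls between cell types, 24 kept their direction and their side of the threshold under every alternative run, of the 35 between cycling and other cells 20 did, and of the 6 between temperatures none did. The numbers below count members called, without the share of all genes called under the same alternative. The causes of these changes were not tested.

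At equal depth the members called between cycling and other cells fell from 7 to 4 in Ighd-positive and from 4 to 1 in Ighd-negative B cells, and the latter rose to 7 without the upper limit on genes. For γδ against αβ T cells, 3 became 6 in cells without a Top2a UMI and without the upper limit. For ILC2 against αβ T cells, 5 became 2 by DESeq2 and 3 with 3 gate markers or without the upper limit.

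Between temperatures, the 3 calls of γδ T cells became 1 by DESeq2, 1 without Top2a cells, 1 at equal depth, 1 without the upper limit, 0 with 3 gate markers and 6 without the filter on low counts. The 2 calls of Ighd-positive B cells became 1 by DESeq2, at equal depth and without the upper limit, and 0 in one fit over all types. The 1 call of Foxp3-positive T cells became 2 by DESeq2, without Scrublet doublets, at equal depth and without immunoglobulin genes, 5 without the low-count filter, and 0 without Top2a cells, without the upper limit and in one fit. From 0, the calls became 1 in Foxp3-negative αβ T cells and in germinal centre B cells without the low-count filter, 1 in Eomes-positive T cells in one fit and 2 in Ighd-negative B cells without the upper limit.

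For the 4 °C response of γδ against αβ T cells, 0 became 1 at a mitochondrial limit of 15% and 2 without the low-count filter, and between cycling and other Foxp3-positive T cells 0 became 1 without that filter. For the cycling effect against αβ T cells, the 2 calls of Ighd-positive B cells became 1 by DESeq2, with its size factors, without Scrublet doublets, with 3 gate markers and at the 15% limit, 0 at equal depth, 5 without the low-count filter and 4 without the upper limit. Without the upper limit, 1 became 2 in ILC2 and 0 became 1 in Ighd-negative B cells.

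The direction turned for Tpi1 in γδ T cells between temperatures (0.11 without Top2a cells, 0.033 without the upper limit), Pkm in Ighd-positive B cells between temperatures (0.018 without the limit), Aldoa in Foxp3-positive T cells with cycling (0.083 without the limit) and Aldoa in germinal centre against Ighd-positive B cells (0.078 without Top2a cells, 0.064 without the limit). The 4 °C minus 30 °C difference in the share of cells with Top2a turned, in percentage points, from −0.47 to 0.36 in Ighd-positive and from −0.76 to 0.15 in germinal centre B cells without the limit. At equal depth it turned from 2.46 to −0.46 in plasma cells, from 1.34 to −1.91 in αβ T cells and from −1.04 to 0.85 in Eomes-positive T cells, the last being 2.90 without the limit.

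On total UMIs in place of TMM, an alternative chosen after the values were seen, the calls between temperatures became 1 in Ighd-negative B cells and 0 in Foxp3-positive T cells, those of the cycling effect against αβ T cells 2 in germinal centre and 1 in Ighd-positive B cells, and Aldoa in germinal centre against Ighd-positive B cells turned to 0.025.

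Libraries with the same replicate number showed little common deviation (correlations of −0.059 to 0.126, above 0.1 in Ighd-negative B cells alone). The correlation is taken over all genes, so it cannot show whether such libraries share a batch that acts on some of them. With the replicate number as a block, 4 members were called at 4 °C in Foxp3-positive T cells, 3 in Ighd-positive B cells and 1 in germinal centre B cells.

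Leaving out 1 library at a time gave 0 to 4 members called between temperatures in γδ T cells (0 without 4 °C replicate 1) and in germinal centre B cells (4 without 30 °C replicate 1), 0 to 2 in Foxp3-positive and Foxp3-negative αβ T cells, 1 to 2 in Ighd-positive and 0 to 1 in Ighd-negative B cells, and 0 in the other types. Between cell types it gave 2 to 4 for γδ and 3 to 4 for ILC2 against αβ T cells, and 6 to 8 for the other pairs. Between cycling and other cells it gave 3 to 4 in Ighd-negative B cells and 5 to 8 in the other types. For differences of the 4 °C response it gave 0 to 3, and for those of the cycling effect 3 to 5 in germinal centre B cells, 1 in ILC2 and 0 to 1 in the others. With 2 pools a group, small changes of genes with few UMIs, such as Hk2 and Slc2a1, could not be resolved.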
